A study of Homo sapiens with 8 samples.

Results

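The SR splicing factor genes examined here are SRSF1, SRSF2, SRSF3, SRSF4, SRSF5, SRSF6, SRSF7, SRSF10, SRSF11 and TRA2B. These 10 genes were chosen by name, out of 20136 protein-coding genes. SR proteins bind short enhancer sequences in pre-mRNA through RNA recognition motifs, and their arginine- and serine-rich tails recruit the spliceosome to nearby splice sites. Kinases of the SRPK and CLK families phosphorylate these tails and so set where in the nucleus the proteins sit and what they bind. SR genes are ubiquitously transcribed, many are short, and several adjust their own output through alternative exons that send the mRNA to decay.

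Chromatin bound by RNAPII was sequenced from MDA-MB-453, an established human breast cancer cell line, after 4 h with vehicle or with 600 nM of CDDD11-8, an inhibitor of CDK9 that the labels call D11-8. CDK9 is the kinase that releases RNAPII paused just downstream of the start of a gene into elongation. Each treatment had 2 ChIP libraries from consecutive passages of cells, made with the antibody CTD4H8 against the C-terminal domain of the largest RNAPII subunit, and each library had a chromatin input. All cells were of the same line, with no genetic change named in the labels.

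Each deposited list gives the regions in which RNAPII was called over input in 1 library, with the fold enrichment at each summit. The vehicle lists held 78306 and 57493 regions, and the CDDD11-8 lists 25897 and 21842. The lists hold no read counts, so sequencing depth per library is not known here and no counting interval can be given. In the CDDD11-8 lists the pileup came in steps of 0.743 and 0.962, against steps of 1 in the vehicle lists, so these libraries had been scaled down before peaks were called. List length, peak width and coverage can all move with depth and scaling, whose part in the results was not tested. Among genes of luminal breast cells, FOXA1 and GATA3 had a peak at the promoter in all 4 libraries and AGR2 did not. None of the basal, oestrogen receptor, fibroblast, endothelial or other-tissue markers had one in both vehicle libraries, and of 4 leukocyte markers 1 did, CD68. In bulk chromatin, fewer cells with RNAPII on a gene and less RNAPII per cell cannot be told apart.

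In vehicle-treated cells RNAPII covered most SR genes from before the transcription start site (TSS) to well beyond the transcript end site (TES), often as 1 unbroken region. With CDDD11-8 the region over the start remained, and the coverage of the 3′ part and of the sequence after the TES was lower in both libraries for most of the genes. SRSF2 stayed covered from end to end in all 4 libraries. As called, SRSF4, SRSF10 and SRSF11 had promoter peaks separate from the rest of the gene with vehicle, and these were wider with CDDD11-8. In SRSF10 the separation was lost once regions within 1 kb were merged.

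The promoters of 4 genes are shown as examples of both directions of the difference in promoter peak width. SRSF3, SRSF6 and TRA2B had a narrower promoter peak with CDDD11-8, and SRSF4 a wider one. Sequences are the RefSeq promoters, placed on GRCh37 by exact match and read 5′ to 3′ along the gene, limited to bases in no annotated exon. They lie at chr6:36561889-36562129 on the plus strand for SRSF3, chr20:42086286-42086532 on the plus strand for SRSF6, chr3:185655892-185656052 on the minus strand for TRA2B and chr1:29508413-29508662 on the minus strand for SRSF4. Capitals mark matches on either strand to a TATA box, a CCAAT box, a GC box or an ETS motif.
SRSF3: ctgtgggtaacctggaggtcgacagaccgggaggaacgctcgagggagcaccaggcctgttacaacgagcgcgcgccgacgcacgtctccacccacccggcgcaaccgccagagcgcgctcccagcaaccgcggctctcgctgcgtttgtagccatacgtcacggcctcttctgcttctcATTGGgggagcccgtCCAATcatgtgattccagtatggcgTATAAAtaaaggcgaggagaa
SRSF6: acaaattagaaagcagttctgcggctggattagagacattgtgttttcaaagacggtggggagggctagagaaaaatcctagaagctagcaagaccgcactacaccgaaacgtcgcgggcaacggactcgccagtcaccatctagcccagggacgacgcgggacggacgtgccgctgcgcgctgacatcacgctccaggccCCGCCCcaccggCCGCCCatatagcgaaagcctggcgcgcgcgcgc
TRA2B: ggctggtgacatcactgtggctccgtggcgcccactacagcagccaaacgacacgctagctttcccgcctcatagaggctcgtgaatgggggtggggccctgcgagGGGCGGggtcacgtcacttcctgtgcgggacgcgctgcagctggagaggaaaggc
SRSF4: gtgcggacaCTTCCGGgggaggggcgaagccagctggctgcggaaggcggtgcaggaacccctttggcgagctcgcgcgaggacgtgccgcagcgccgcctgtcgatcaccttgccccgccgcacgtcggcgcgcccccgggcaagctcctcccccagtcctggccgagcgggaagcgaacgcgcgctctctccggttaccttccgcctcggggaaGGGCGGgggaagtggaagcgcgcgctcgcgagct
Promoter sequences were found for 9 of the 10 genes, and the same letters were searched in the 250 bases before the start of each. SRSF7 and SRSF11 had 2 promoters each and were counted if either matched, whereas the shares of all promoters are per promoter. A TATA box, TATAAA, was found in 3 of the 9, with its first base at -30 from the start in SRSF3, at -27 from the canonical start in SRSF7 and at -206 from the canonical start in SRSF11. It was found in 10.7% of the 35116 promoters in the RefSeq table, which holds genes of all kinds. A GC box, GGGCGG, was found in 4 of the 9, against 42.6% of all promoters. An ETS motif, CCGGAAG, was found in 2, SRSF4 and SRSF5, against 8.52%. The CCAAT box was found in 1, SRSF3, against 32%. An E-box, CACGTG, was found in none of the 9 and in 6.34% of all. These matches describe the letters only, and none of those printed overlaps another. The GC content of the 250 bases was 62.4% in SRSF3, 61.6% in SRSF6, 65.6% in TRA2B and 73.6% in SRSF4, with a median of 58% over all promoters.

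A promoter peak was taken as the strongest region overlapping the 300 bp on either side of the TSS of the longest isoform. Of the 10 SR genes, 9 had one in all 4 libraries, and 9669 genes of at least 1 kb did so in all. The exception was SRSF5, whose longest isoform starts 40242 bp upstream of its canonical start and had no promoter peak in any library. At the canonical start SRSF5 had a peak in all 4. For SRSF11 the longest isoform starts 15656 bp upstream of the canonical start, with 144 bp between it and LRRC40 on the other strand. Values below are for the longest isoform unless the canonical one is named.

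A single promoter peak spanned the whole gene in both vehicle libraries and in neither CDDD11-8 library for 4 of 9 SR genes, SRSF3, SRSF6, SRSF7 and TRA2B, compared with 1.47% of all genes tested. This measure was chosen after the data were seen. Only a gene spanned with vehicle could be counted. With vehicle 6 and 5 of the 9 SR genes were spanned, compared with 8.88% and 8.85% of all genes tested. Among the 5881 genes tested whose length lay within the range of the SR genes, 3219 to 47329 bp, the share was 2.33%. For canonical isoforms it held for 5 of 10, SRSF5 being the addition, compared with 1.71% of all genes. SRSF2 was spanned in all 4 libraries, as were 4.9% of all genes.

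TRA2B, a homologue of a Drosophila splicing regulator of sex determination, showed the largest difference in width among the 9. It lies at chr3:185632346-185655802 on the minus strand and is 23457 bp long, and the nearest protein-coding gene is 89515 bp away. Its promoter peak was 31770 and 30888 bp wide with vehicle, and 7707 and 9566 bp wide with CDDD11-8. Both vehicle values were above both CDDD11-8 values, a difference of -22692.5 bp between means of 31329 ± 624 and 8636.5 ± 1315 bp (SD, n = 2). The exact two-sided permutation test gave p = 0.33, which is the smallest p that 2 libraries against 2 allow, so no single-gene difference in these data can reach 0.05 and a difference is described by whether the groups overlap.

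SRSF3, the smallest of the SR proteins and an adaptor for mRNA export, lies at chr6:36562139-36573377 on the plus strand and also stands alone, 46882 bp from the nearest protein-coding gene. Its peak measured 29743 and 26200 bp with vehicle, and 9020 and 8420 bp with CDDD11-8. The groups did not overlap, with means 27971.5 ± 2505 and 8720 ± 424 bp (SD, n = 2). The vehicle peak began 2925 and 2250 bp before the TSS and ended 15579 and 12711 bp past the TES. With CDDD11-8 the peak ended 5321 and 5169 bp after the TSS, inside the gene.

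SRSF7, which like SRSF3 links splicing to mRNA export, lies at chr2:38970741-38978636 on the minus strand, with 39 bp between its start and that of GEMIN6 on the other strand. The peak over this paired start measured 21010 and 12767 bp with vehicle and 7670 and 8291 bp with CDDD11-8. The groups did not overlap, although the vehicle libraries differed more from each other than vehicle replicate 2 did from either CDDD11-8 library. With vehicle the region ran 10821 and 2947 bp past the TES, and with CDDD11-8 it stopped 4294 and 5546 bp after the TSS. SRSF6, a regulator of alternative exons, lies at chr20:42086533-42094686 on the plus strand. It overlaps a longer gene of the same strand that starts 161 bp after it. Its peak measured 18090 and 17649 bp with vehicle, and 7544 and 6492 bp with CDDD11-8. The vehicle libraries were close to each other and both were far above the CDDD11-8 libraries.

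SRSF5, an SR protein that shuttles between nucleus and cytoplasm, has its canonical isoform at chr14:70233859-70238722 on the plus strand, 4864 bp long. At that start its peak measured 21196 and 17044 bp with vehicle, and 7572 and 6648 bp with CDDD11-8, with no overlap. With vehicle it ran 13775 and 10279 bp past the TES, over the end of SLC10A1 on the other strand.

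**Figure D1:**
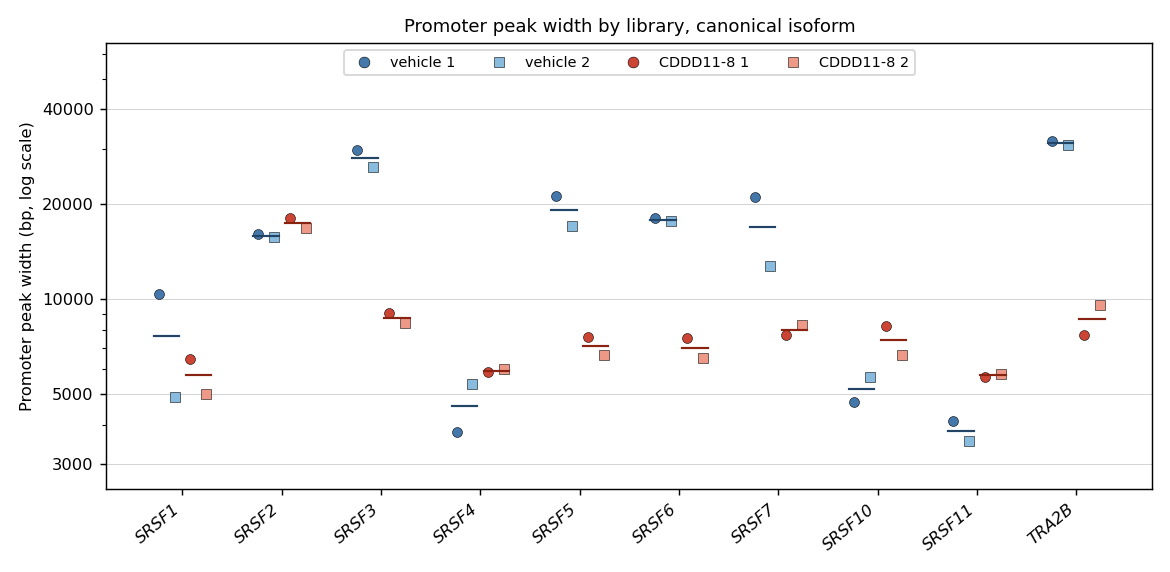
Promoter peak width in bp (log scale) at the canonical TSS of each SR gene in the 4 libraries, with lines at the group means. SRSF3, SRSF5, SRSF6, SRSF7 and TRA2B lie between 12767 and 31770 bp with vehicle and between 6492 and 9566 bp with CDDD11-8, whereas SRSF4, SRSF10 and SRSF11 are wider with CDDD11-8.

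The other SR genes did not show this contraction of the promoter peak as called, although SRSF1 did once regions within 1 kb were merged. SRSF1, the prototype SR protein and a shuttling splicing activator, lies at chr17:56078280-56084607 on the minus strand, within a longer gene that shares its start. Its peak measured 10369 and 4898 bp with vehicle, and 6482 and 5004 bp with CDDD11-8, so the groups overlapped. In vehicle replicate 1 the peak ended 1997 bp past the TES, whereas in vehicle replicate 2 it ended 2537 bp after the TSS and other regions covered the rest of the gene, the last of them running 8630 bp past the TES.

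SRSF2, a splicing activator used as a marker of nuclear speckles, lies at chr17:74730197-74733415 on the minus strand and overlaps MFSD11 on the other strand, with METTL23 and JMJD6 close by. Its peak measured 16031 and 15758 bp with vehicle, and 18145 and 16753 bp with CDDD11-8, and reached into these neighbours in every library. RNAPII on SRSF2 cannot be told apart here from RNAPII on the overlapping genes.

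SRSF4, a long-tailed SR protein, lies at chr1:29474255-29508412 on the minus strand. Its promoter peak measured 3801 and 5384 bp with vehicle and 5867 and 5997 bp with CDDD11-8. SRSF10, which represses splicing when it loses its phosphates, lies at chr1:24290837-24306817 on the minus strand, 900 bp from the end of PNRC2 on the other strand. Its promoter peak measured 4708 and 5646 bp with vehicle and 8222 and 6635 bp with CDDD11-8. SRSF11, an SR-related protein, lies at chr1:70671407-70718735 on the plus strand. At its canonical start the peak measured 4111 and 3549 bp with vehicle and 5676 and 5804 bp with CDDD11-8, and at the longest start 1637 and 2063 bp against 4638 and 4092 bp. In these 3 genes the CDDD11-8 values were above the vehicle values in every pairing of libraries.

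Across the 9 genes, the promoter peak was narrower in both CDDD11-8 libraries for 4, compared with 9.49% of all genes tested, and wider for 4, compared with 64.5%. At the canonical starts it was narrower for 5 of 10, compared with 9.43%. The median difference was -1890.5 bp over the 9 SR genes and 1218.5 bp over all genes, but the median over the SR genes was 548 bp without vehicle replicate 1. The SR genes began from wider peaks, with medians of 16031 and 12767 bp with vehicle, compared with 3035 and 3132 bp over all genes. The downstream edge of the peak lay closer to the TSS for 4 of 9, compared with 9.71% of all genes, and further away for 3, compared with 59.6%. The upstream edge differed from this. It lay further from the TSS for 7 of 9, a share near the 66.4% of all genes, so that even SRSF3, SRSF7 and TRA2B had a peak that reached further upstream with CDDD11-8 while it ended earlier downstream.

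Gene body coverage, the percent of bases from 300 bp after the TSS to the TES that lay in any region, was lower in both CDDD11-8 libraries for 8 of 9 SR genes, compared with 37.6% of all genes tested, and higher for none, compared with 25.6%. The median difference was -39.2 percentage points over the 9 genes and -0.61 over all genes, many of which had little coverage to begin with, the median gene being 16.5% and 12.2% covered with vehicle. At canonical isoforms coverage was lower for 9 of 10, compared with 36.9%. With lists of equal length, the 21842 strongest regions of each, it was lower for 7 of 9, compared with 22.6%, and higher for none, compared with 41.9%. SRSF1, SRSF2, SRSF3, SRSF6, SRSF7 and TRA2B were fully covered in a vehicle library in both settings, so these genes could not be called higher.

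The SR genes that were fully covered with vehicle kept different shares. TRA2B was covered over 100% of its body in both vehicle libraries and over 43.7% and 41.3% with CDDD11-8. SRSF6 went from 100% in both to 51.3% and 47.2%. SRSF7 had 100% in both vehicle libraries and 52.6% and 69.1% with CDDD11-8. In each of these genes the CDDD11-8 libraries resembled each other more than either resembled vehicle.

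SRSF3 kept more of its coverage, with 100% in both vehicle libraries and 84.4% and 63.8% with CDDD11-8, of which the promoter peak itself gave 45.9% and 44.5%. The remainder came from separate regions further along the gene. SRSF1 was covered over 100% and 93.7% with vehicle and over 58.9% and 50.1% with CDDD11-8. SRSF5, at its canonical isoform, had 100% in both vehicle libraries and 85.9% and 77.7% with CDDD11-8, in a body short enough that the promoter peak alone covered most of it.

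The genes with a separate promoter peak spanned a wide range. SRSF4 was covered over 85.3% and 63.6% with vehicle, in many separate regions, and over 11.9% and 9.68% with CDDD11-8. The difference of -63.7 percentage points was the largest of the 9, and with CDDD11-8 the promoter peak alone covered 9.65% and 9.68% of the body. SRSF11 had 41.2% and 29.4% with vehicle and 20.2% and 16.5% with CDDD11-8, and at the canonical isoform 52.7% and 33.8% against 13.8% and 11.8%. SRSF10 differed least among the 8, with 93.6% and 94.6% with vehicle and 83.6% and 82.1% with CDDD11-8. With regions within 1 kb merged it was covered over 100% in all 4 libraries. SRSF2 was covered over 100% in all 4 libraries.

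**Figure D2:**
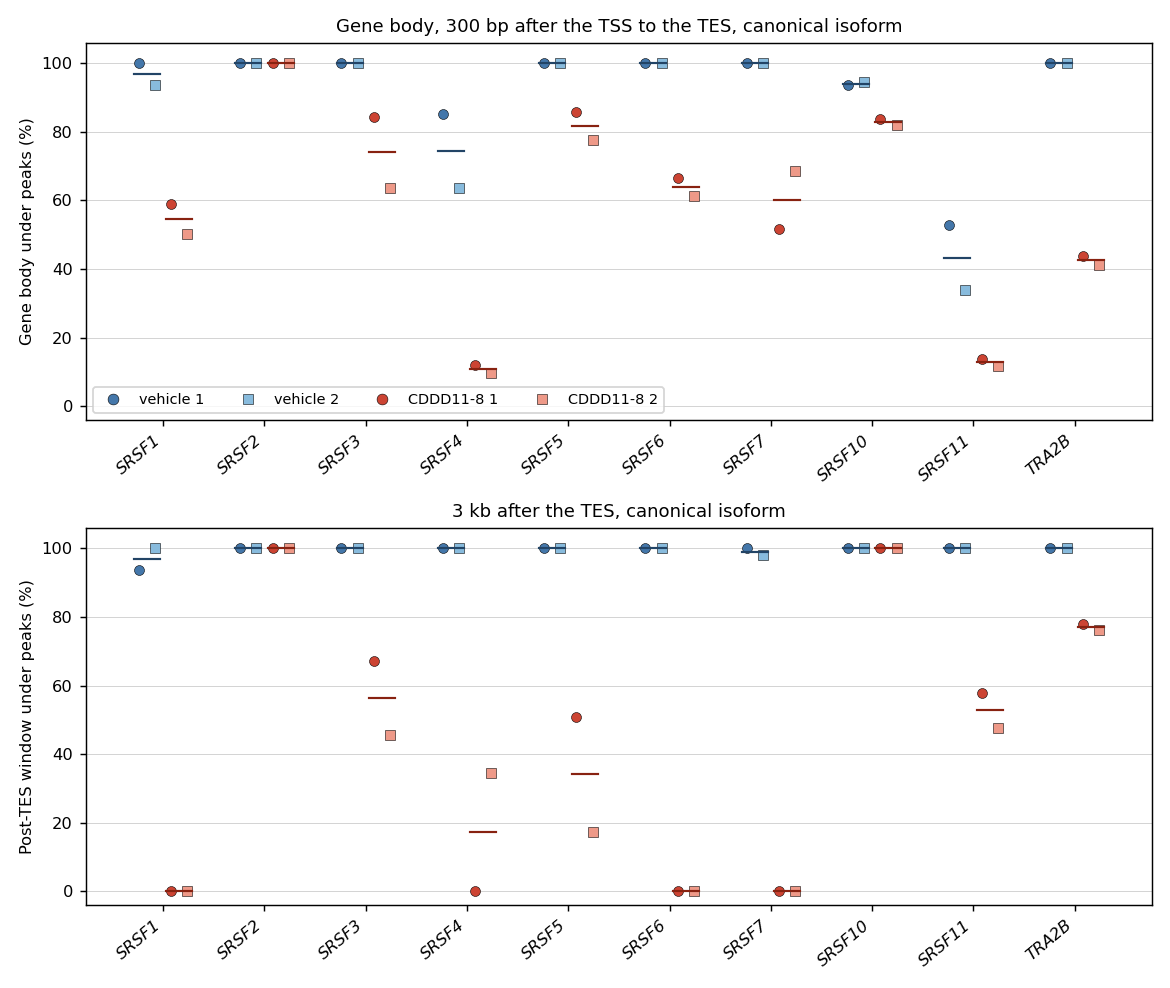
Percent of the gene body (upper panel) and of the 3 kb after the TES (lower panel) under called RNAPII regions for each SR gene at its canonical isoform, 1 point per library with lines at group means. The vehicle points sit at or near 100% after the TES in all 10 genes, and the CDDD11-8 points sit at 0 for SRSF1, SRSF6 and SRSF7 and at 100% for SRSF2 and SRSF10.

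After the TES, RNAPII that has passed the polyadenylation site goes on until transcription terminates. In the 3 kb after the TES, coverage was lower in both CDDD11-8 libraries for 7 of 9 SR genes, compared with 38.6% of all genes tested, and higher for none, compared with 3.36%. Each of the 9 stood at 100% in a vehicle library, so none could be called higher. Over all genes tested the median was 40.7% and 26.6% with vehicle, and a gene without coverage there could not be called lower. At canonical isoforms it was lower for 8 of 10, compared with 41.6%. SRSF6 had 100% in both vehicle libraries and 0% in both CDDD11-8 libraries. SRSF7 had 100% and 98.2% against 0% in both, and SRSF1 93.7% and 100% against 0% in both. These 3 genes had no called region left in that window.

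Other genes kept part of it. SRSF4 had 100% in both vehicle libraries against 0% and 34.6%, SRSF5 100% in both against 50.9% and 17.4%, and SRSF3 100% in both against 67.3% and 45.5%. SRSF11 had 100% in both against 58% and 47.6%, and TRA2B 100% in both against 77.9% and 76.3%. In SRSF10 the window was covered over 100% in all 4 libraries, in regions that also cover PNRC2, and in SRSF2 likewise with its neighbours.

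Further out the direction differed between genes. Between 6 and 10 kb after the TES of the canonical isoform, a window chosen after the data were seen, coverage was higher in both CDDD11-8 libraries for 4 of 10 SR genes, SRSF2, SRSF4, SRSF10 and TRA2B, compared with 8.34% of all genes. It was lower for 5, SRSF1, SRSF3, SRSF5, SRSF6 and SRSF7, compared with 19.7%. At SRSF2 and SRSF10 this window holds the starts of other genes. METTL23 and JMJD6 start 7272 and 7316 bp past the TES of SRSF2, and PNRC2 starts 7508 bp past that of SRSF10. RNAPII at these starts cannot be told apart here from RNAPII that has passed the SR gene. TRA2B had 18.5% and 0% with vehicle and 84.8% and 82% with CDDD11-8. SRSF4 had 93.2% and 72.4% with vehicle and 100% and 99.9% with CDDD11-8. SRSF6 and SRSF7 had 0% in both CDDD11-8 libraries there.

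For TRA2B, which has no annotated protein-coding neighbour in reach, several regions were left past the TES with CDDD11-8. The longest lay 2705 to 8304 bp past the TES in replicate 1, at chr3:185624042-185629641, with a fold enrichment of 7.41. In replicate 2 the longest lay 2522 to 6409 bp past the TES with a fold enrichment of 7.94. With vehicle the gene's single region ended 6327 and 5902 bp past the TES, with 1 short region up to 6919 bp in replicate 1. Both CDDD11-8 libraries held called regions beyond that, up to 9815 and 9874 bp. At SRSF4 a region from 4584 to 10129 bp past the TES in CDDD11-8 replicate 1 and from 3594 to 9996 bp in replicate 2 stood apart from the promoter peak, with fold enrichments of 4.83 and 5.49. Both vehicle libraries held regions over the same stretch, which were continuous with or next to the region over the TES. Their fold enrichments were 10.9 in replicate 1, whose region also covered the TES, and 8.01 in replicate 2. Both were above the CDDD11-8 values, although coverage between 6 and 10 kb was lower with vehicle.

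Fold enrichment over input at the summits showed where within these regions RNAPII was densest. The strongest summit within 1 kb of the TSS was higher in both CDDD11-8 libraries for 9 of 9 SR genes, a share to be read against 87.5% of all genes tested. It was 21.4 and 22.9 with vehicle and 63.6 and 50.2 with CDDD11-8 for SRSF7, the highest of the 10. For SRSF4 it was 4.49 and 11.9 against 40.8 and 32. For SRSF3 it was 20.1 and 20.8 against 36.6 and 25.9. Fold enrichment is set within each list, so scaling and antibody recovery enter the comparison between libraries.

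A factor that applies to a whole library cancels in a ratio between summits of the same list, apart from the local background. The log2 ratio of the strongest summit within 1 kb of the TSS to the strongest in the 3 kb after the TES, a measure also chosen after the data were seen, could be formed in all 4 libraries for 5 SR genes. It was higher in both CDDD11-8 libraries for 5 of 5, compared with 72.2% of the 2361 genes tested, and lower for none, compared with 7.33%. The median difference was 2.73 over these SR genes and 1.44 over all. For TRA2B the log2 ratio was -0.78 and 0.05 with vehicle, and 2.93 and 2.10 with CDDD11-8. For SRSF3 it was 0.18 and 0.45 against 2.87 and 3.22. In both genes the ratio was above 2 in the CDDD11-8 libraries and below 1 in the vehicle libraries. For SRSF2 it was -0.12 and 0.80 against 2.85 and 2.45. For SRSF10 it was -1.10 and -1.02 against 1.54 and 0.48. SRSF1, SRSF6 and SRSF7 had no summit left after the TES in the CDDD11-8 libraries, so that no ratio exists for the genes in which that signal was lowest.

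**Figure D3:**
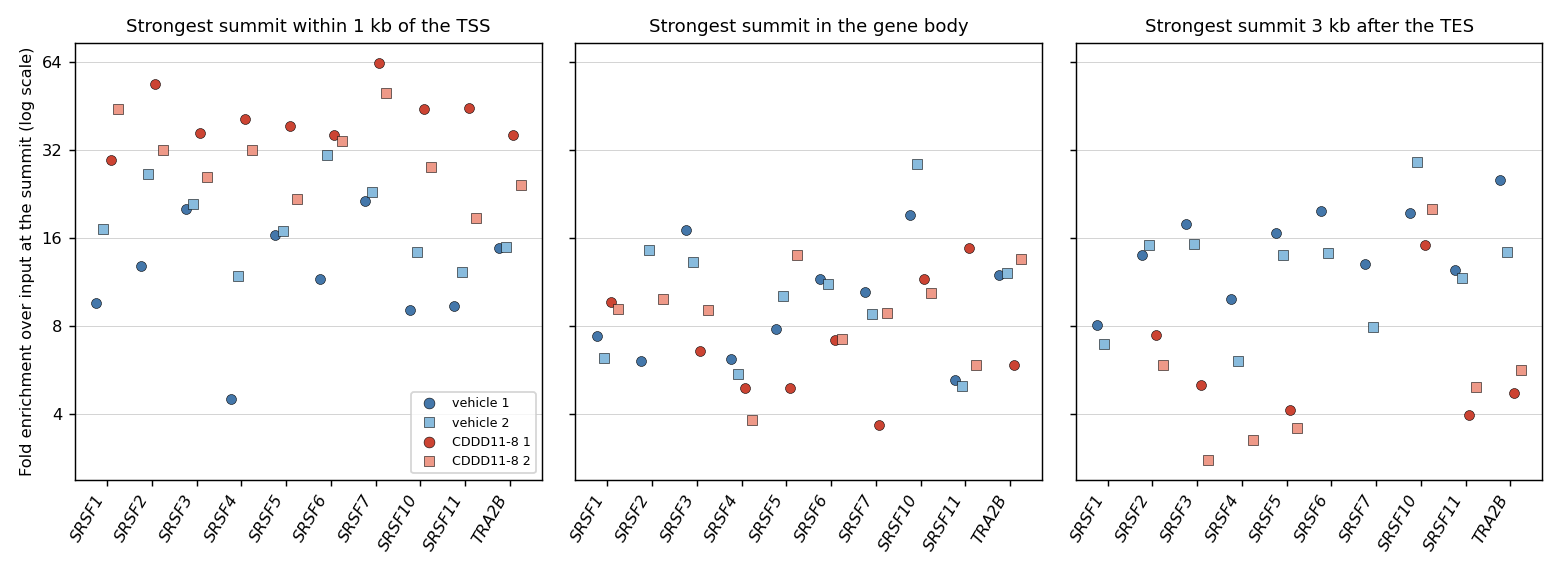
Fold enrichment over input (log scale) of the strongest summit within 1 kb of the TSS, in the rest of the gene body and in the 3 kb after the TES, for each SR gene at its canonical isoform, 1 point per library and no point where no summit was called. CDDD11-8 points lie above vehicle points at the TSS in all 10 genes, and after the TES they lie below them in the genes that have them, except SRSF10 where the groups overlap.

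The ratio of the promoter peak to the strongest other region touching the gene body could be formed in all 4 libraries only for SRSF10 and SRSF11. A region counted even where its strongest summit lay outside the body. In the other SR genes at least 1 library had no region in the gene body apart from the promoter peak, or, for SRSF5, no promoter peak. It was higher in both CDDD11-8 libraries for SRSF10, compared with 62.9% of the 2150 genes tested, at -1.10 and -1.02 with vehicle and 0.26 and 0.29 with CDDD11-8 on the log2 scale. It was lower for none of the 2, compared with 9.44%. For SRSF11 the groups overlapped at the longest isoform, where the other region with CDDD11-8 was its own canonical promoter peak. At the canonical isoform they did not, with a log2 ratio of -0.40 and 0.06 with vehicle and 3.37 and 1.92 with CDDD11-8. There the vehicle regions had their strongest summit after the TES. With the summits around the TSS and inside the body, the log2 ratio was 0.85 and 1.30 with vehicle and 1.60 and 1.67 with CDDD11-8.

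The place of the strongest summit of the promoter peak differed as well. In TRA2B it lay past the TES in both vehicle libraries, 2798 and 3888 bp beyond it, with a fold enrichment of 25.3 and 15.8. With CDDD11-8 it lay 32 bp after the TSS, in exon 1, in replicate 1 and 41 bp before the TSS in replicate 2. In SRSF6 it lay 1280 bp past the TES of the canonical isoform in vehicle replicate 1 and 81 bp after the TSS in vehicle replicate 2. In both CDDD11-8 libraries it was in exon 1, 44 and 50 bp after the TSS. In SRSF5 it lay 1928 bp past the TES in vehicle replicate 1, 625 bp after the TSS in intron 1 in vehicle replicate 2, and 85 and 48 bp before the TSS with CDDD11-8. In SRSF3 it lay from 8 to 49 bp before the TSS in all 4 libraries, next to the TATA box printed above, and in SRSF7 from 49 to 89 bp after the canonical TSS.

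The rank of the promoter peak within its list varied among the SR genes. Promoter peaks rank high in general, with medians over all genes tested of 91.1% and 91.4% of the list below them with vehicle and 84.2% and 80.6% with CDDD11-8. With vehicle, SRSF3 had a higher fold enrichment than 99.8% and 99.6% of the regions in its list, and with CDDD11-8 than 93.1% and 93.5%. TRA2B stood above 99.9% and 98.7% with vehicle and above 92.6% and 91.5% with CDDD11-8. SRSF7 stood above 99.8% and 99.7% with vehicle and above 99.8% and 99.9% with CDDD11-8. These 3 genes were above the median of all genes in every library. SRSF11 was lower, above 79.6% and 85.4% with vehicle and 93.9% and 64.6% with CDDD11-8, and SRSF4 stood above 77.2% in vehicle replicate 1. The rank was lower in both CDDD11-8 libraries for 3 of 9, SRSF3, SRSF6 and TRA2B, compared with 42.1% of all genes tested, and higher for SRSF7, compared with 9.16%. The count of lower ranks was 5 without vehicle replicate 1 and 6 without CDDD11-8 replicate 1. With a library left out the groups separate more easily in any gene, so these counts cannot be set against the shares above. With lists of equal length it was lower for 3, compared with 11.7% of all genes, and higher for 4, compared with 38.6%. The rank uses the strongest summit of the whole region. For TRA2B with vehicle, and for SRSF6 in vehicle replicate 1, that summit lay past the canonical TES. Within 1 kb of the TSS, TRA2B had a fold enrichment of 14.8 in both vehicle libraries and of 35.9 and 24.2 with CDDD11-8. SRSF6 had 11.6 and 30.8 there with vehicle and 35.9 and 34.2 with CDDD11-8.

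Other splicing genes were taken from lists of SR-related proteins, their kinases, hnRNPs and core spliceosome proteins. Of 64 such genes, 59 had a promoter peak in all 4 libraries. Gene body coverage was lower in both CDDD11-8 libraries for 38 of 59 and higher for 4, and coverage after the TES was lower for 34 and higher for 4, to be read against the shares of all genes given above. The promoter peak was narrower for 13, where the share of all genes was 9.49%, and wider for 24, where it was 64.5%. By group, coverage was lower for 5 of 7 SR-related genes, 2 of 4 kinase genes, 12 of 20 hnRNP genes and 19 of 28 core spliceosome genes. A single region spanned the gene in both vehicle libraries and in neither CDDD11-8 library for 7 of 59, compared with 1.47% of all genes, named here after their values were seen: SRRM2, CLK1, CLK2, HNRNPA3, HNRNPC, HNRNPU and PCBP2. Here too only a gene spanned with vehicle could be counted.

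CLK1, a kinase of SR proteins, resembled SRSF6 in its values, with gene body coverage of 100% in both vehicle libraries and 50.7% and 46.5% with CDDD11-8, and a promoter peak of 18644 and 19274 bp against 8478 and 7925 bp. SRRM1, a splicing coactivator with SR repeats, had coverage of 66.7% and 53.7% with vehicle and 11.7% and 14.1% with CDDD11-8. HNRNPR had 91.3% and 80.5% against 8.90% and 7.41%. SF3B3, a subunit of the SF3b complex that recognises the branch point, had 85.5% and 79% against 8.70% and 7.40%. At the other end, SRSF8 had 92.4% and 93.5% with vehicle and 93.6% and 96.8% with CDDD11-8. HNRNPA2B1, which binds exonic silencers, had 80% and 77.4% against 100% and 99.2%. The genes at that end of the kinase and core spliceosome lists, not named, were also higher in both CDDD11-8 libraries. The kinase gene had 2.20% and 2.35% against 3.41% and 2.44%, and the core spliceosome gene 23.9% and 10.1% against 33.6% and 26.6%.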

How the data were processed

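RNAPII ChIP-seq peak lists of 4 libraries were analysed, 2 with vehicle and 2 with CDDD11-8. The 4 input libraries entered only as the controls of peak calling. Reads had been mapped by the authors to GRCh37 using Bowtie 2, and MACS2 at default settings had been run on each library with its input, without pooling. The deposited pileup is a signal, the fragments over a summit after MACS2 scaling. The fold enrichment deposited beside it is a ratio to the background estimated around the summit. Significance was deposited as the −log10 of a p-value and of a q-value. Positions and lengths are in bp.

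Summits listed for the same region were treated as a single peak, which took the highest of their fold enrichments. An overlap of 1 bp counted. Genes were protein-coding genes of GENCODE release 44 on GRCh37, of 1 kb or more. Groups came from the labels. For single values the group means were tested by exact permutation over the libraries (two-sided). Genes were counted where the groups did not overlap, beside the share over all genes tested. The SR genes and the other gene lists were chosen with earlier results of these data known. The rule for naming other splicing genes took, per list, the largest and smallest difference in gene body coverage, for at most 6 genes. Of the 8 it gave, 6 are named. Those left out came from the kinase and core spliceosome lists, and both had higher coverage with CDDD11-8. Alternatives covered list length, stringency, isoform, windows, merging, gene sets, each library left out and a replicate block. The scripts were tested on simulated peaks and ran with pandas 2.3.3 and numpy 2.4.6 under Python 3.11.15, with tests from scipy 1.17.1 and figures drawn in matplotlib 3.10.9.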

Additional observations from a re-analysis of the deposited data

How the results depend on the processing

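Of 300 values of single SR genes under the alternatives, 288 kept the direction of the reported value or had a reported difference of 0. A difference of 0, as for both coverages of SRSF2 and for SRSF10 after the TES, has no direction to keep. The number of promoter peaks narrower with CDDD11-8 was 4 to 5 with any 1 library left out, gene body coverage was lower for 8 in each of these and coverage after the TES for 7. The median difference in width ran from -4626 to 548 bp, the latter without vehicle replicate 1, that in gene body coverage from -39.2 to -36.2 points, and that after the TES from -54.5 to -42.0 points. A lower rank was found for 3 to 6 genes, and a higher promoter to body ratio for 1 to 3. With a library left out the groups separate more easily in any gene. Where a count here and below has no share of all genes beside it, it shows only how the SR genes moved.

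Leaving only genes at least 3 kb from another gene left 3 SR genes, SRSF3, SRSF4 and TRA2B. Of these, 2 had a narrower peak, 2 a shorter reach and 1 a wider peak, and coverage was lower in the body for 3 and after the TES for 3. The ratio was higher for 0, since none could be formed, and the medians were -19251.5 bp and -57.5 points. Ranking by −log10 q-value gave a lower rank for 5. The ratio was higher for 2 with canonical isoforms, for 6 with the summit inside the promoter and for 2 with the body extended 3 kb past the TES.

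The median difference in width was -5399.25 bp with canonical isoforms and -13841.5 bp with regions within 1 kb merged. Merged, SRSF4 turned to -19320.5 bp, but its groups overlapped, at 45063 and 6082 bp with vehicle and 6507 and 5997 bp with CDDD11-8. The merged peak of SRSF1 measured 17197 and 25258 bp with vehicle and 6482 and 7381 bp with CDDD11-8, without overlap. It spanned the gene in both vehicle libraries and in neither CDDD11-8 library. The merged peak of SRSF10 spanned the gene in every library, at 25693 and 26003 bp with vehicle and 28389 and 27929 bp with CDDD11-8. Its body coverage was then 100% in every library, so its lower coverage was not kept. The median in the body was -34.4 points with lists of equal length, -33.3 with canonical isoforms, -53.5 with the body extended 3 kb past the TES and -43.1 with the body taken from 1 kb. Counting only bases outside the promoter peak, coverage was lower for 3 of 9 genes, compared with 45.5% of all genes, and higher for 2, compared with 4.32%, so the count reported for the whole body was not kept. The median was 0, and the difference was 28.9 points for SRSF3, 2.01 for SRSF6 and 17.5 for TRA2B. By construction, a vehicle peak that spans a gene leaves no such bases. After the TES the median was -82.4 points at a −log10 q-value of at least 5, -56.5 with canonical isoforms, -35.4 with merging and -28.1 over 10 kb, where TRA2B was 23.3 points higher.

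The libraries share replicate numbers. Deviations from the group means of libraries with the same number correlated across genes at -0.02 for width and -0.10 for rank. No pairing by number was detected, but with 2 libraries per group this cannot show whether libraries with the same number shared a passage. With the replicate block, 4 peaks were narrower, 4 wider, and coverage was lower in 8 bodies and after 7 TESs. Crossing the replicate block, chosen after seeing the data, gave a lower rank for 5 and a higher ratio for 2. Depth per library is not known, and a stretch without a called region can hold RNAPII below the calling threshold.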
